A study of Homo sapiens with 12 samples.

Results

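The 31 genes described here encode the enzymes of cholesterol synthesis, the sterol-sensing machinery that controls them, a sterol carrier, and the enzymes of fatty acid synthesis and desaturation that are known targets of the SREBP transcription factors. They were chosen by name, with earlier results of these data known, so the set is not independent of the values below. Every probe whose RefSeq accession belongs to one of them was used. Of the 31 genes, 30 had at least 1 probe (48 probes in all, 16 genes with 1 probe and 14 with 2 to 4), and no probe matched ACLY, the cytosolic enzyme that makes acetyl-CoA from citrate. The arrays measured 17237 named genes in all.

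Cells make cholesterol from acetyl-CoA by way of mevalonate, farnesyl diphosphate, squalene and lanosterol. The SREBP proteins are made as membrane-bound precursors that SCAP escorts out of the endoplasmic reticulum when sterol is low. When sterol is plentiful, the INSIG proteins hold SCAP back. Released SREBP enters the nucleus and activates nearly every gene of the pathway together with INSIG1 itself, so that the transcripts of the set are known to rise and fall together in many tissues, the intestinal epithelium among them.

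The genes were followed on 12 dual-color arrays, each hybridized with RNA from siRNA-transfected cells (15 nM siRNA for 72 h). Ls174T is a human colorectal cancer line whose Wnt pathway is always on through a mutant β-catenin, and HEK293T is a human embryonic kidney line that carries SV40 large T antigen and responds to added Wnt. In Ls174T cells, si-b-catenin RNA was set directly against si-control RNA on 2 arrays with the dyes exchanged, and RNA of si-control cells and of cells given si-BRG1, si-P300, or si-MLLT10 was each hybridized to 1 array against a universal human reference. For HEK293T cells, 1 array held si-control RNA of cells in control conditioned medium (CM). Another 5 arrays held RNA of cells given Wnt3A conditioned medium for 9 h after si-control, si-BRG1, si-P300, si-MLLT10, or si-DOT1L, all against the same kind of reference. MLLT10/AF10 is a partner of DOT1L, the histone H3 lysine 79 methyltransferase, BRG1 is the ATPase of the SWI/SNF chromatin remodeling complex (gene SMARCA4), and p300 is a histone acetyltransferase (gene EP300). The study asked which Wnt target genes depend on these factors.

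There was 1 biological replicate per condition, and the dye exchange measured the same RNA again, so no test between conditions was possible and no p-values are given. All changes are log2 ratios of depleted over control cells, or of Wnt3A over CM. The error given with them is the error of the scanner program for the features compared, combined over arrays, and it does not include the spread between cultures. A gene was called past 1.5-fold on the size of its change alone (0.58 on the log2 scale), and the share of all other measured genes past the same limit is given with the count over the whole set in each comparison. RNA was taken from whole cultures, so fewer cells with a transcript and less transcript per cell cannot be told apart. The transcript that each siRNA targets was lower in its own array, with log2 changes of −2.60 for CTNNB1, −1.42 and −1.76 for MLLT10 in Ls174T and HEK293T cells, −1.07 for DOT1L, −2.42 and −3.97 for SMARCA4, and −0.96 and −2.66 for EP300. Of 10 colon epithelium markers, 10 were above background in Ls174T si-control cells and 8 in HEK293T si-control CM cells. The latter held 7 of 7 measured markers of the HEK293T line, against 3 in Ls174T cells. Log2 differences, Ls174T over HEK293T, were 0.44 to 7.67 for the 5 colon markers compared (median 7.34). For the 7 markers of the HEK293T line they were −9.65 to −0.25 (median −6.56). Of the 30 genes of the set, 25 were well above background in the sample channel on all 12 arrays. The arrays lay on 5 slides, and the sample channel had a median of 1.66 to 3.47 times its local background.

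After BRG1 depletion the set was lower in both cell lines, with a larger median shift than in any other comparison to si-control cells of the same line. In Ls174T cells the median log2 change of the 30 genes was −0.48, against −0.01 for 13253 other genes, and 26 of 30 genes lay below 0 (51.2% of the others). Of the 30 genes, 11 were past 1.5-fold lower and 0 higher, whereas 4.31% of the other genes were past it lower and 7.47% higher. In HEK293T cells with Wnt3A the median was −0.52, against −0.00 for 13398 other genes, with 25 of 30 below 0 (50% of the others). There 13 genes were past 1.5-fold lower and 0 higher, against 12.7% and 8.11% of the other genes. Within the program error were 6 of 30 changes in Ls174T and 10 of 30 in HEK293T cells.

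**Figure D1:**
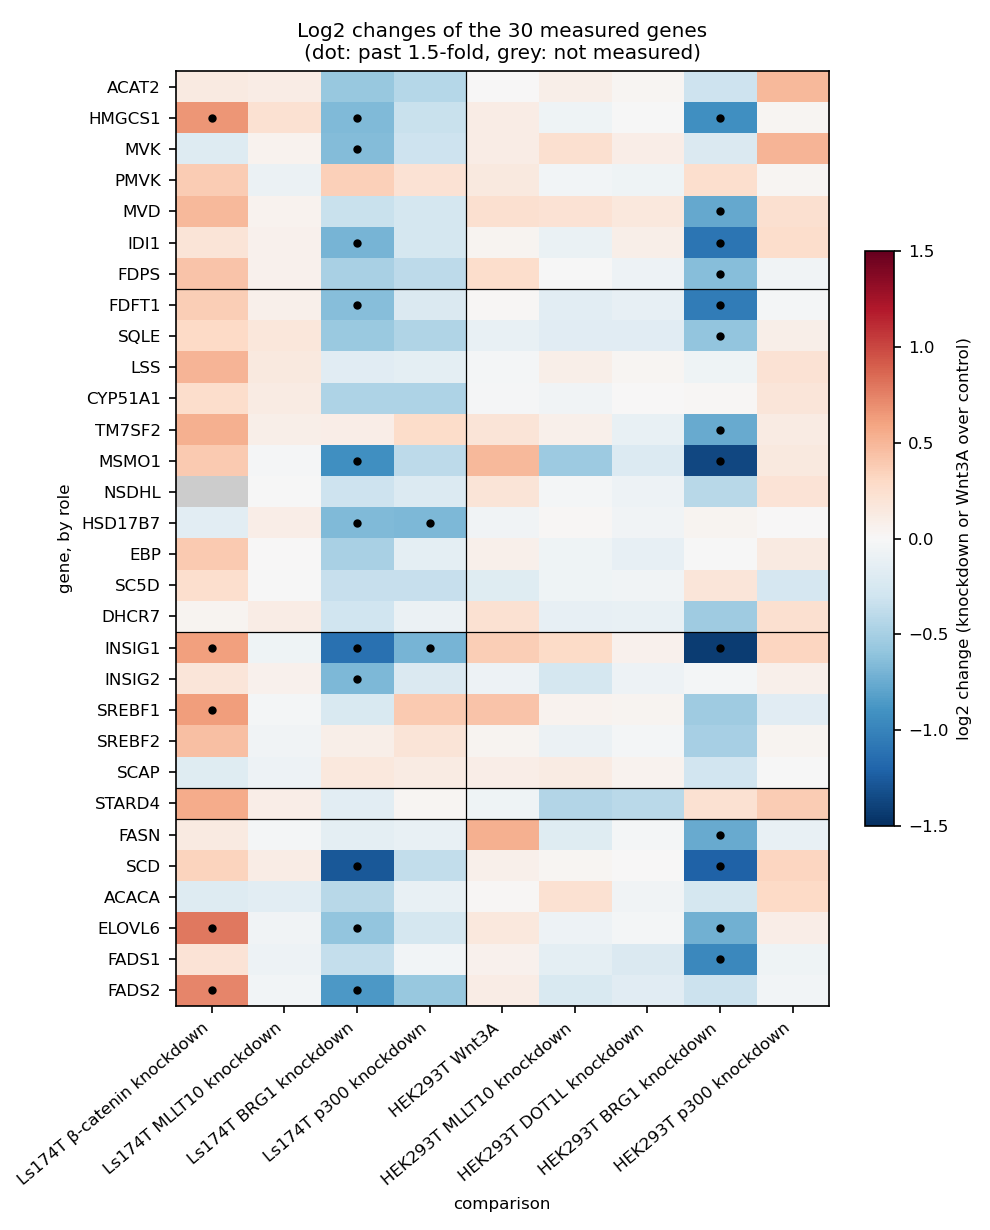
Log2 change of each of the 30 measured genes (rows, ordered by role from early mevalonate steps to fatty acid enzymes) in each of the 9 comparisons (columns), with blue for lower and red for higher and a dot where the change was past 1.5-fold. The 2 BRG1 columns hold 11 and 13 dots, all on lower values, and the β-catenin column holds 5 dots, all on higher values.

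Of the 7 enzymes of the early steps, from acetyl-CoA to farnesyl diphosphate, 3 were past 1.5-fold lower in Ls174T and 4 in HEK293T cells after BRG1 depletion, with medians of −0.57 and −0.64. For these and the following groups of enzymes, the shares of other genes past 1.5-fold lower are again 4.31% in Ls174T and 12.7% in HEK293T cells. HMGCS1, which joins acetyl-CoA to acetoacetyl-CoA, had log2 ratios to the reference of 1.95 in si-control, 2.18 in si-MLLT10, 1.29 in si-BRG1, and 1.62 in si-P300 Ls174T cells. In HEK293T cells its ratios were −0.54 in si-control CM, −0.43 in si-control Wnt3A, −0.49 in si-MLLT10, −0.44 in si-DOT1L, −1.35 in si-BRG1, and −0.40 in si-P300 cells. The BRG1 array was the lowest in each line, by changes from si-control of −0.66 ± 0.27 in Ls174T and −0.92 ± 0.23 in HEK293T cells. IDI1, the isopentenyl diphosphate isomerase, read 1.25, 1.32, 0.55, and 0.98 on the same 4 Ls174T arrays in that order. On the 6 HEK293T arrays it read 0.37, 0.41, 0.31, 0.50, −0.68, and 0.68. Its BRG1 array was again the lowest in both lines, with changes of −0.70 ± 0.31 and −1.09 ± 0.30. Among the other early enzymes, MVK, the mevalonate kinase, was at −0.65 ± 0.29 in Ls174T and −0.22 ± 0.22 in HEK293T cells. MVD, the mevalonate diphosphate decarboxylase, and FDPS, the farnesyl diphosphate synthase, were past it in HEK293T cells (−0.76 ± 0.30 and −0.64 ± 0.30), with −0.33 ± 0.32 and −0.49 ± 0.30 in Ls174T cells. ACAT2, the cytosolic thiolase, was at −0.57 ± 0.21 and −0.31 ± 0.21. PMVK, the phosphomevalonate kinase, lay above 0 in both lines, at 0.36 ± 0.33 and 0.25 ± 0.31.

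Of the 11 enzymes from squalene synthesis onward, 3 and 4 were past 1.5-fold lower, with medians of −0.47 and −0.41. MSMO1, which removes methyl groups from the sterol ring, read 2.12 in si-control, 2.10 in si-MLLT10, 1.20 in si-BRG1, and 1.73 in si-P300 Ls174T cells. On the HEK293T arrays it read −0.31 in CM and 0.18 in Wnt3A si-control cells, −0.36 in si-MLLT10, −0.02 in si-DOT1L, −1.18 in si-BRG1, and 0.32 in si-P300 cells. The changes after BRG1 depletion were −0.92 ± 0.37 and −1.36 ± 0.31, and both were the lowest reading of the line. FDFT1, the squalene synthase, read 1.63, 1.72, 1.00, and 1.42 in Ls174T cells. Its HEK293T readings were −0.69, −0.67, −0.83, −0.80, −1.73, and −0.70. These gave −0.64 ± 0.34 and −1.05 ± 0.33 after BRG1 depletion. SQLE, the squalene epoxidase, read 0.33, 0.50, −0.23, and −0.12 in Ls174T and −0.38, −0.49, −0.67, −0.66, −1.08, and −0.40 in HEK293T cells. It was past 1.5-fold lower in HEK293T cells (−0.59 ± 0.31) and just short of it in Ls174T cells (−0.56 ± 0.29).

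Among the later sterol enzymes, some had values of like size in the 2 lines and others did not, and no difference between the lines was tested. HSD17B7, a sterol ketone reductase, read 1.54, 1.64, 0.88, and 0.87 in Ls174T cells, so that both the BRG1 and the p300 array lay below the other 2. On the HEK293T arrays it read −0.01, −0.07, −0.05, −0.12, −0.03, and −0.06, within the program error of one another. TM7SF2, a sterol reductase, showed the reverse, with 0.10 ± 0.23 in Ls174T and −0.76 ± 0.21 in HEK293T cells after BRG1 depletion. CYP51A1, the lanosterol demethylase, and EBP, the sterol isomerase, were at −0.47 ± 0.25 and −0.49 ± 0.31 in Ls174T cells, and at 0.02 ± 0.21 and −0.01 ± 0.29 in HEK293T cells. DHCR7, which makes cholesterol in the last step, was at −0.30 ± 0.30 and −0.54 ± 0.29. NSDHL, another sterol dehydrogenase, was at −0.31 ± 0.35 and −0.41 ± 0.34, and SC5D, the sterol desaturase, at −0.35 ± 0.22 and 0.18 ± 0.21. For LSS, the lanosterol synthase, the gene mean of −0.06 in HEK293T cells hid probes that disagreed, with 2 at −0.99 and −0.68 and 2 at 0.58 and 0.85. In Ls174T cells its 4 probes lay between −0.26 and 0.01.

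Of the 5 sterol-sensing genes, 2 were past 1.5-fold lower in Ls174T and 1 in HEK293T cells, with medians of −0.23 and −0.50. INSIG1 had the largest change of the whole set in HEK293T cells and, after SCD, the next largest in Ls174T cells. INSIG1, the sterol-dependent anchor of SCAP and itself an SREBP target, read 1.74 in si-control, 1.68 in si-MLLT10, 0.62 in si-BRG1, and 1.05 in si-P300 Ls174T cells. In HEK293T cells it read −0.10 in CM, 0.26 in Wnt3A, 0.55 in si-MLLT10, 0.32 in si-DOT1L, −1.16 in si-BRG1, and 0.58 in si-P300 cells. Its changes after BRG1 depletion were −1.12 ± 0.33 and −1.42 ± 0.31, or 2.18-fold and 2.68-fold lower. INSIG2, the second anchor, which is not known as a strong SREBP target, was at −0.68 ± 0.21 in Ls174T and −0.03 ± 0.25 in HEK293T cells.

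The transcription factors and their escort were not past 1.5-fold after BRG1 depletion in either line. SREBF2, which encodes the SREBP that mainly drives cholesterol synthesis, read 0.68, 0.63, 0.77, and 0.88 in Ls174T cells. Its HEK293T readings were 0.25, 0.29, 0.20, 0.26, −0.21, and 0.33, with the BRG1 array lowest. Its changes after BRG1 depletion were 0.09 ± 0.30 and −0.50 ± 0.29. SREBF1, which encodes the SREBP that mainly drives fatty acid synthesis, read 0.87, 0.84, 0.64, and 1.26 in Ls174T cells and −1.72, −1.29, −1.24, −1.25, −1.83, and −1.46 in HEK293T cells. It was at −0.23 ± 0.22 and −0.53 ± 0.25 after BRG1 depletion. SCAP read 0.04, −0.03, 0.20, and 0.16 in Ls174T and 0.54, 0.64, 0.77, 0.69, 0.35, and 0.63 in HEK293T cells. Its changes of 0.16 ± 0.29 and −0.29 ± 0.30 were within the program error. In Ls174T cells SREBF2, SREBF1, and SCAP were not past 1.5-fold after BRG1 depletion although 11 of the other genes of the set were. In HEK293T cells 13 of the other genes were past it. There the changes of SREBF2 and SREBF1 lay near the median of the set (−0.52).

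**Figure D2:**
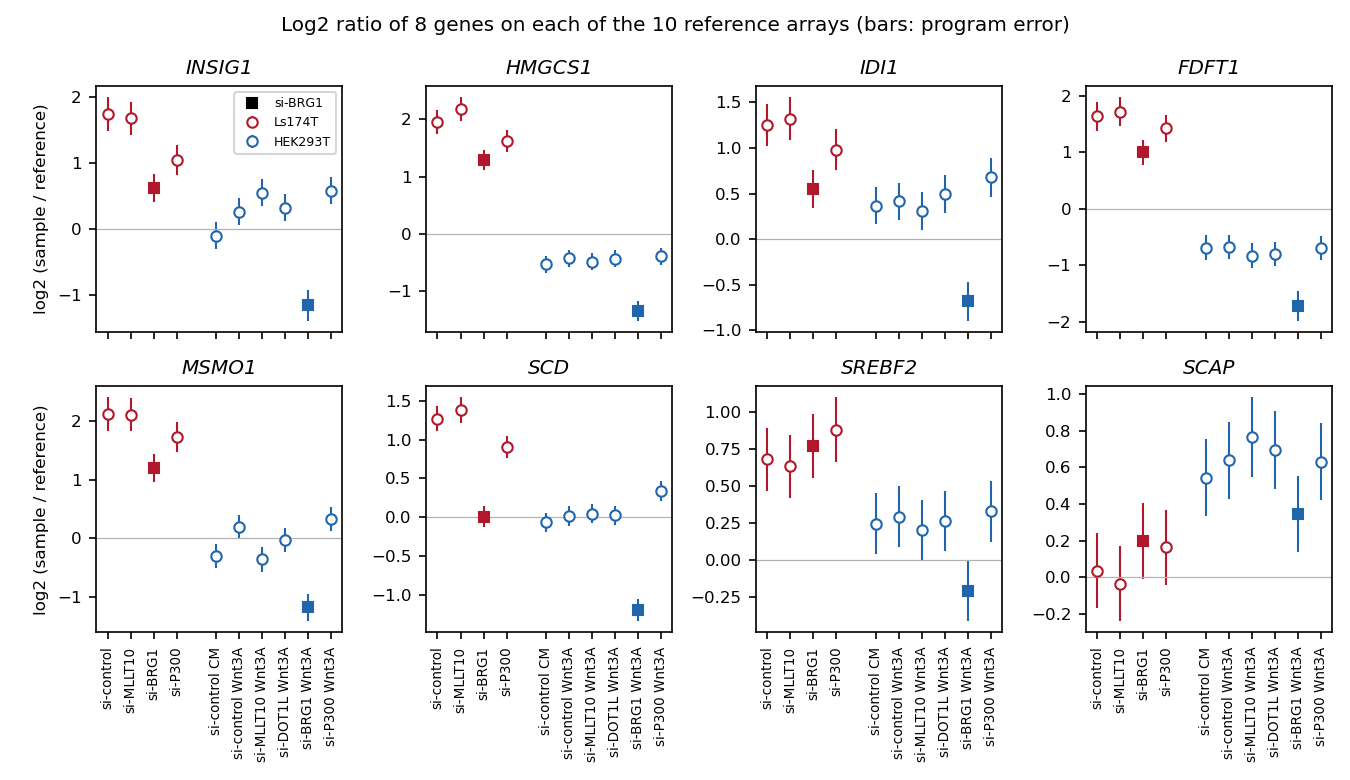
Log2 ratio of sample to reference RNA (vertical axis, bars show the program error) for 8 genes on the 4 Ls174T (red) and 6 HEK293T (blue) reference arrays, with filled squares for si-BRG1. For INSIG1, HMGCS1, IDI1, FDFT1, MSMO1, and SCD the si-BRG1 array was the lowest of its line in both lines, whereas for SREBF2 and SCAP this held in HEK293T cells only.

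Of the 6 measured fatty acid enzymes, 3 were past 1.5-fold lower in Ls174T and 4 in HEK293T cells, with medians of −0.50 and −0.74. SCD, the stearoyl-CoA desaturase that introduces the first double bond, read 1.27, 1.38, 0.01, and 0.91 in Ls174T cells. In HEK293T cells it read −0.07, 0.01, 0.04, 0.02, −1.20, and 0.34. Its changes of −1.27 ± 0.21 and −1.21 ± 0.19 after BRG1 depletion were close in size in both lines, and its 3 probes were all past 1.5-fold lower in each, down to −1.59 and −1.44. ELOVL6, an elongase of long saturated fatty acids, read 2.43, 2.38, 1.84, and 2.16 in Ls174T and 0.20, 0.35, 0.28, 0.32, −0.37, and 0.46 in HEK293T cells, with changes of −0.59 ± 0.40 and −0.72 ± 0.29. FASN, the fatty acid synthase, read 1.05, 1.03, 0.91, and 0.94 in Ls174T cells, a spread below the program error. In HEK293T cells it read 0.49, 1.02, 0.84, 0.99, 0.26, and 0.92, and its change was −0.76 ± 0.31.

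The desaturases FADS1 and FADS2 make polyunsaturated fatty acids. FADS1 was at −0.36 ± 0.23 in Ls174T and −0.97 ± 0.25 in HEK293T cells. FADS2 was at −0.86 ± 0.28 in Ls174T and −0.32 ± 0.23 in HEK293T cells, but its 2 probes differed, at −0.50 and −1.22 in Ls174T and −0.89 and 0.25 in HEK293T cells. The probe of FADS2 that was measured on all reference arrays read 1.78, 1.68, 1.28, and 1.68 in Ls174T and −0.86, −0.75, −0.98, −0.93, −1.65, and −0.80 in HEK293T cells. ACACA, the acetyl-CoA carboxylase, was at −0.41 ± 0.24 and −0.27 ± 0.23. STARD4, which carries sterol between membranes, was at −0.16 ± 0.35 and 0.23 ± 0.32.

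The BRG1 comparisons of the 2 lines share no array. Of the 30 genes, 7 were past 1.5-fold lower in both lines (ELOVL6, FDFT1, HMGCS1, IDI1, INSIG1, MSMO1, and SCD), which is 23.3% of the set against 0.955% of 12881 other genes. In Ls174T cells 2 of these 7 calls depended on the processing, since with the sample channel alone ELOVL6 was at −0.42 and IDI1 at −0.41, which leaves 5. ELOVL6 was also short of the limit when arrays were centred (−0.58) and against the si-MLLT10 array in place of si-control (−0.54). In all, 22 of 30 genes lay below 0 in both lines, or 73.3% against 27.4% of the others. This count follows largely from the shift of the whole set in each line. Across the 30 genes the changes in the 2 lines had a Pearson correlation of 0.49, and across the other genes of −0.05. This is a description across genes, which are not independent replicates.

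**Figure D3:**
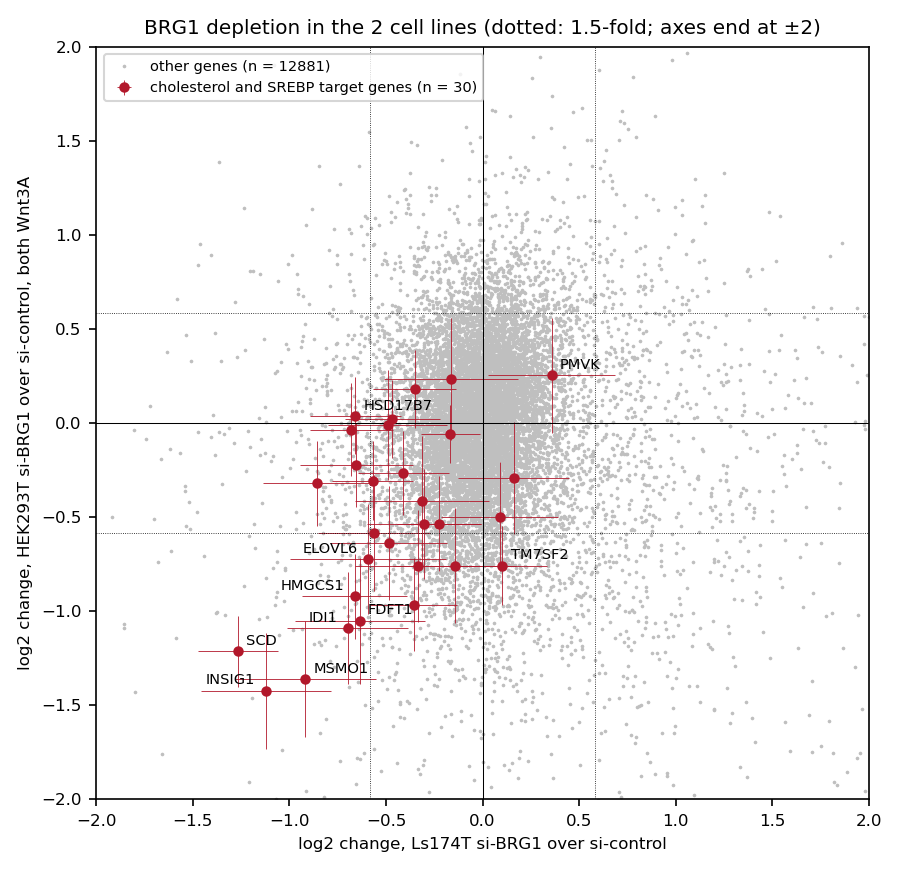
Log2 change after BRG1 depletion in Ls174T (horizontal axis) and HEK293T cells (vertical axis) for the 30 genes (red, bars show the program error) and 12881 other genes (grey). The 7 named genes past 1.5-fold lower in both lines lie in the lower left, and PMVK lies above 0 in both.

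Slide and condition could not be told apart for these changes, since the Ls174T si-control and si-BRG1 arrays lay on different slides, and the HEK293T si-control Wnt3A array lay alone on its slide. The BRG1 array was therefore also set against every other reference array of its line. In Ls174T cells the median of the 30 genes was −0.48 against si-control, −0.52 against si-MLLT10, and −0.21 against si-P300, the last on the same slide. In HEK293T cells it was −0.31 against si-control CM, −0.52 against si-control Wnt3A, −0.47 against si-MLLT10, −0.45 against si-DOT1L, and −0.67 against si-P300, the last on the same slide. The median was thus below 0 in every pairing, and it was within the slide that the Ls174T shift was smallest and the HEK293T shift largest. The BRG1 array was the lowest of the 4 Ls174T reference arrays for 25 of 30 genes (28.3% of other genes) and the lowest of the 6 HEK293T arrays for 23 of 30 (32.1% of other genes).

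After p300 depletion the median of the set lay below 0 in Ls174T and above 0 in HEK293T cells, with 15 and 22 of 30 changes within the program error. In each line the si-P300 array and the si-control array lay on different slides, so slide and depletion could not be told apart here either. In Ls174T cells the median was −0.24, against 0.03 for the other genes, and 24 of 30 genes lay below 0 (45.8% of the others). Past 1.5-fold lower were INSIG1 (−0.69 ± 0.34) and HSD17B7 (−0.67 ± 0.23), that is 2 of 30 genes, with 0 higher, against 5.13% lower and 8.47% higher among the other genes. The highest value was 0.39 ± 0.23 for SREBF1. The comparison shares the si-control array with the BRG1 comparison, where INSIG1 was at −1.12 and HSD17B7 at −0.66. In HEK293T cells the median after p300 depletion was 0.11, against 0.02 for the other genes, with 22 of 30 genes above 0 (52.9% of the others). This median ranged from 0.05 with normexp and loess to 0.17 with the sample channel alone. There 0 genes were past 1.5-fold in either direction, against 3.36% of other genes higher and 7.25% lower. The highest values were 0.51 ± 0.24 for MVK, 0.49 ± 0.21 for ACAT2, and 0.39 ± 0.32 for STARD4. The si-P300 array was the highest of the 6 HEK293T arrays for 19 of 30 genes (19.3% of other genes).

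**Figure D4:**
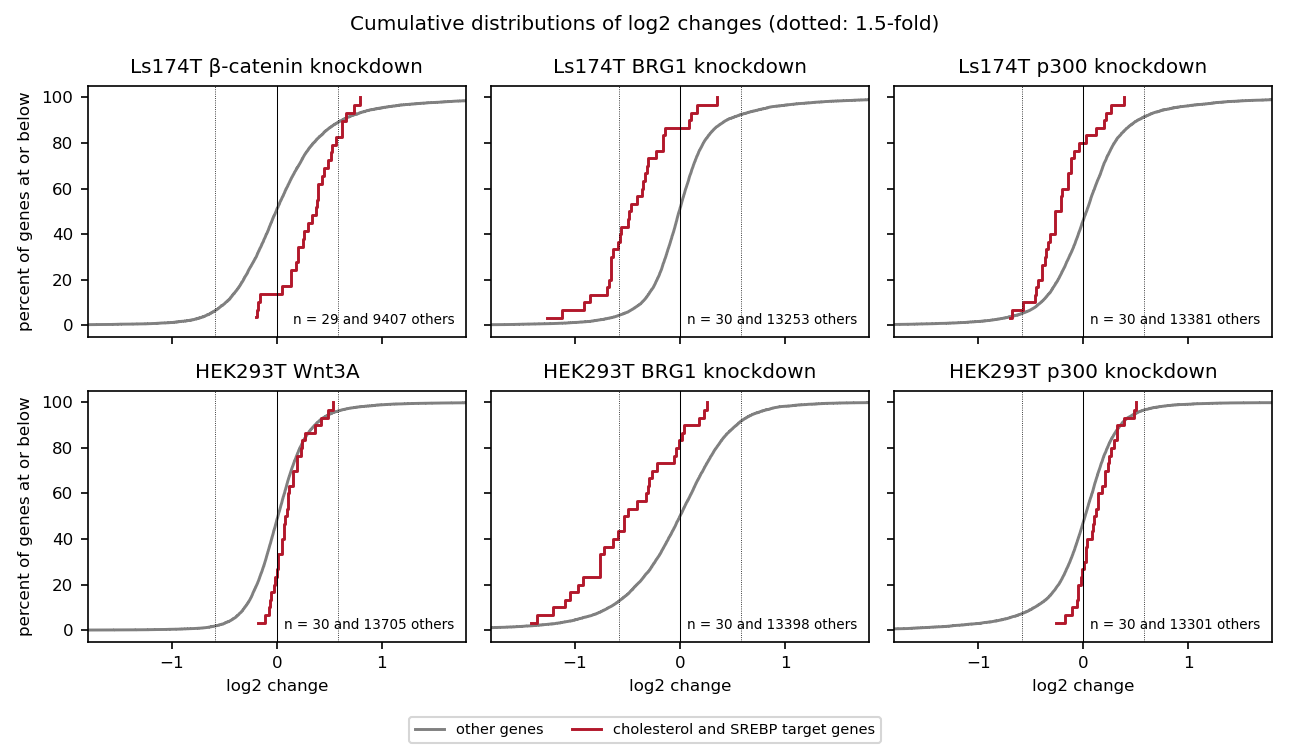
Cumulative percent of genes (vertical axis) at or below each log2 change (horizontal axis) for the measured genes of the set (red) and all other measured genes (grey) in 6 comparisons. The red curve lies to the left after BRG1 depletion in both lines (medians −0.48 and −0.52), to the right after β-catenin depletion (0.37), and close to the grey curve for Wnt3A (0.09) and p300 depletion in HEK293T cells (0.11).

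The arrays of 1 slide allowed BRG1- and p300-depleted cells to be compared directly. In Ls174T cells 27 of 30 genes were lower in BRG1- than in p300-depleted cells (52.9% of the others). The median was −0.21, and 17 of 30 differences were within the program error. Past 1.5-fold were SCD (−0.90 ± 0.20) and SREBF1 (−0.62 ± 0.22), 2 of 30 genes against 3.36% of the others. In HEK293T cells 27 of 30 genes were lower (52.5% of the others), with a median of −0.67. Past 1.5-fold were 18 of 30, against 9.89% of the others. Here 7 of 30 differences were within the program error. INSIG1 (−1.75 ± 0.31), SCD (−1.54 ± 0.19), and IDI1 (−1.36 ± 0.30) were among the largest differences, and MSMO1 was 2.83-fold lower. These 2 within-slide comparisons share no array, and 26 of 30 genes were lower in BRG1-depleted cells in both lines (86.7%, against 31.2% of the other genes). With 27 of 30 lower in each line, a count near this follows from the shifts of the set. PMVK (0.14 ± 0.33 and 0.22 ± 0.31) and HSD17B7 (0.01 ± 0.22 and 0.03 ± 0.20) were above 0 in both lines, within the program error.

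**Figure D5:**
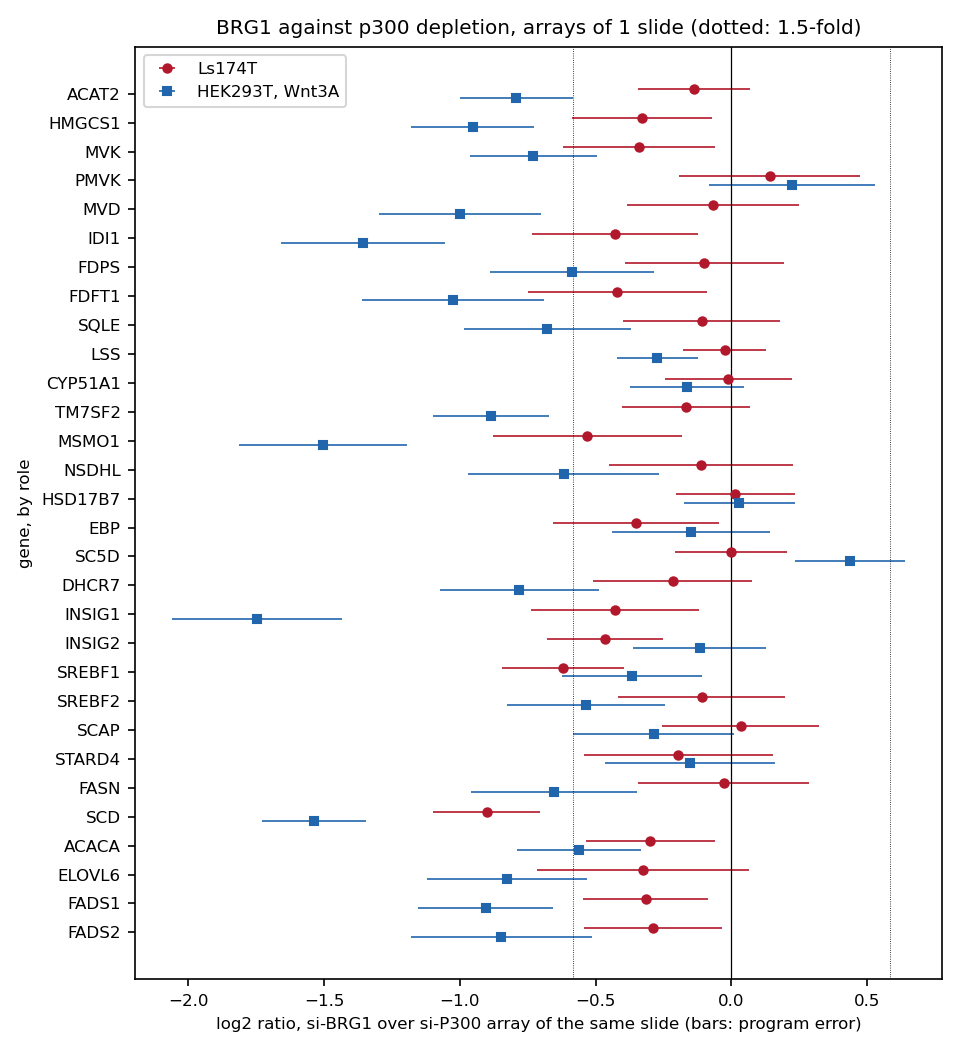
Log2 ratio of the si-BRG1 to the si-P300 array of the same slide (horizontal axis, bars show the program error) for each of the 30 genes in Ls174T (red circles) and HEK293T cells with Wnt3A (blue squares). In each line 27 of 30 genes lie below 0, against 52.9% of other genes in Ls174T and 52.5% in HEK293T cells. Past 1.5-fold lower (dotted line) are 18 genes in HEK293T cells against 2 in Ls174T cells.

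Promoter bases are shown for 4 of the 7 genes past 1.5-fold lower in both lines, INSIG1, MSMO1, HMGCS1, and SCD. They are also shown for SREBF2, whose window held the only match to the letters searched for the sterol regulatory element. The bases are the 250 before the annotated start site, from RefSeq on build GRCh38.p14, written 5′ to 3′ on the gene's strand. Capitals mark the CCAAT box of the factor NF-Y (CCAAT on either strand) and, in SREBF2, the sterol regulatory element (TCACNCCAC on either strand).
INSIG1, chr7:155297628-155297877, plus strand: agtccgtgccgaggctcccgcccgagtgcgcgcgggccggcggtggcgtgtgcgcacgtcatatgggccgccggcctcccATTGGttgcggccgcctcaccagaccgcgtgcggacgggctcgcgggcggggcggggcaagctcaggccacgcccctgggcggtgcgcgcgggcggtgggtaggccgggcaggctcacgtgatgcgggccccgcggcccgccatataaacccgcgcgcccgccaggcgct
MSMO1, chr4:165327419-165327668, plus strand: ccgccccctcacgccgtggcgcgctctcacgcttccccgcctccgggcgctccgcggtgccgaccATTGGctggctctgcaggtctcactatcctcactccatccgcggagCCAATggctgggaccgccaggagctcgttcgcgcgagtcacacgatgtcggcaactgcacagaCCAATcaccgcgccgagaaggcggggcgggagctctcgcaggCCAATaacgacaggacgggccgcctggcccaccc
HMGCS1, chr5:43313413-43313662, minus strand: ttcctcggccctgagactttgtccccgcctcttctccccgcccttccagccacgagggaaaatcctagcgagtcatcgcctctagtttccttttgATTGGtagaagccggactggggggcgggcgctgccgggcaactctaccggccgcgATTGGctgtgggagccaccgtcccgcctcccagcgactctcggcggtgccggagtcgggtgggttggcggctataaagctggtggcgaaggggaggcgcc
SCD, chr10:100346983-100347232, plus strand: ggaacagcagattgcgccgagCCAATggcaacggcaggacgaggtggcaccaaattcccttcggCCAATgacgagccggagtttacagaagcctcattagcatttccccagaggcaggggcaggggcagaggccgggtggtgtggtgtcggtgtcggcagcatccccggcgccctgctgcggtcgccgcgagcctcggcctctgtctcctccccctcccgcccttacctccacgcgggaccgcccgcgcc
SREBF2, chr22:41832855-41833104, plus strand: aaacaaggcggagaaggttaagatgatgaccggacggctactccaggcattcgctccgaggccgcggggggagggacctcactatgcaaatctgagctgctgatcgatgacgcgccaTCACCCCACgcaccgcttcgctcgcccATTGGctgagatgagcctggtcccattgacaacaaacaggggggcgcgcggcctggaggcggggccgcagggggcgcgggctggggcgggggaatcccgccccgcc
RefSeq windows of 250 bases before to 50 bases after a start site were at hand for 27 of the 31 genes (37 windows). The sterol regulatory element in these letters was found in 1 of the 37 windows, that of SREBF2 (2.70%, against 1.13% of all 35116 windows). Other forms of the element and bases outside the windows were not searched, so its absence from the other genes is not shown. CCAAT was found in 24 of 37 windows (64.9% against 34.6%), and GGGCGG, the box bound by Sp1, in 33 of 37 (89.2% against 45.0%). CANNTG, the E-box, was found in 19 of 37 windows (51.4% against 68.7%), and CTTTGAT, the core bound by TCF factors, in 0 of 37 (0% against 2.62%). Against the 19557 windows of the other genes on the array, the shares were 1.11% for the sterol regulatory element, 34.7% for CCAAT, 58.3% for GGGCGG, 64.4% for CANNTG, and 1.85% for CTTTGAT. All motifs were searched on both strands, matches of different motifs may overlap, and a match is a description and not a site of binding. CCAAT was found for 5 of the 6 genes lower in both lines that had a window, with ELOVL6 the exception. This is near the share of the whole set, where 20 of 27 genes with a window held it (74.1%). It was not found in the second window of HMGCS1, which is not shown. Of the bases shown, those of MSMO1 held 4 CCAAT boxes, those of HMGCS1 and SCD 2 each, and those of INSIG1 and SREBF2 1 each.

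β-catenin depletion in Ls174T cells went the other way. The median log2 change of the 29 measured genes was 0.37, against −0.01 for 9407 other genes, and 25 of 29 lay above 0 (49.1% of the others). NSDHL was not measured above background on both arrays of the pair. Past 1.5-fold higher were 5 genes and lower 0, against 10.8% and 6.55% of the other genes, so the share of the set past 1.5-fold higher was near that of all genes and the shift lay in the smaller changes. The 5 genes were ELOVL6 (0.80 ± 0.15), FADS2 (0.73 ± 0.15), HMGCS1 (0.66 ± 0.11), SREBF1 (0.62 ± 0.10), and INSIG1 (0.62 ± 0.15). None of them was past 2-fold. Just below the limit were STARD4 (0.56 ± 0.15), TM7SF2 (0.53 ± 0.11), and LSS (0.51 ± 0.10).

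The 2 arrays of the dye exchange had the same direction for most of the set, with 23 of 29 genes above 0 on both arrays and 4 below 0 on both. Of the other genes, 40.3% were above 0 on both. On the first and second array, ELOVL6 read 0.67 and 0.92, FADS2 0.75 and 0.71, HMGCS1 0.63 and 0.70, SREBF1 0.62 and 0.63, and INSIG1 0.59 and 0.64. All 5 genes were past 1.5-fold on both arrays when features measured on both were used, and so were 809 of the 9407 other genes. SREBF2 read 0.34 and 0.57, SCD 0.33 and 0.34, FDFT1 0.46 and 0.28, MSMO1 0.44 and 0.34, and IDI1 0.10 and 0.29. SQLE read 0.28 and 0.31 and FASN 0.24 and 0.03. SCAP read −0.25 and −0.11 and HSD17B7 −0.32 and −0.00, so these were among the 4 genes below 0. For SCD the mean again joined probes that differed, at −0.05 and 0.71. INSIG2 differed most between the arrays, at 0.58 and −0.22.

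The β-catenin pair shares no array with the BRG1 comparison. Of the 29 genes measured in both, 22 were above 0 after β-catenin depletion and below 0 after BRG1 depletion in Ls174T cells (75.9%, against 25.8% of the other genes). The correlation of the 2 changes across the 29 genes was −0.09, and −0.01 across the other genes. For BRG1 depletion in HEK293T cells, 21 of 29 genes were above 0 in the first and below 0 in the second comparison (72.4%, against 26.3% of the other genes). Both counts follow largely from the shift of the whole set in each comparison and do not show an opposition gene by gene.

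Adding Wnt3A to HEK293T cells gave a median of 0.09, against 0.01 for the other genes, with 23 of 30 genes above 0 (51.5% of the others). No gene was past 1.5-fold in either direction (0 of 30), against 3.8% of the other genes higher and 1.87% lower, and 26 of 30 changes were within the program error. The largest values were 0.53 ± 0.31 for FASN, 0.49 ± 0.29 for MSMO1, 0.42 ± 0.25 for SREBF1, and 0.36 ± 0.29 for INSIG1. The si-control CM and si-control Wnt3A arrays lay on different slides. On the slide of the CM array, MLLT10- and DOT1L-depleted cells with Wnt3A had medians of 0.07 and 0.08 against it, with INSIG1 at 0.66 ± 0.29 and 0.43 ± 0.29 and FASN at 0.35 ± 0.31 and 0.50 ± 0.31.

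Depletion of MLLT10/AF10 or DOT1L left the set near 0. In Ls174T cells the median after MLLT10/AF10 depletion was 0.05, no gene was past 1.5-fold (0 of 30, against 2.15% of other genes higher and 1.73% lower), and all 30 changes were within the program error. The lowest was −0.16 for ACACA and the highest 0.22 for HMGCS1, and si-control and si-MLLT10 lay on the same slide. In HEK293T cells with Wnt3A the median was −0.06 after MLLT10/AF10 and −0.05 after DOT1L depletion. Past 1.5-fold were 0 of 30 genes after either, against 2.44% of other genes higher and 3.43% lower after MLLT10/AF10 depletion, and 1.57% higher and 3.34% lower after DOT1L depletion. MSMO1 was the lowest after MLLT10/AF10 depletion, at −0.54 ± 0.29, with −0.21 ± 0.29 after DOT1L depletion. STARD4 was at −0.44 ± 0.35 and −0.40 ± 0.35. These HEK293T comparisons share the si-control Wnt3A array. Set against each other on their own slide, the MLLT10- and DOT1L-depleted arrays differed by a median of 0.01, with 28 of 30 differences within the program error.

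The lines themselves differed more than any depletion. In si-control cells the median of the 30 genes was 1.25 higher on the log2 scale in Ls174T than in HEK293T cells in CM. For 13138 other genes it was 0.01. In Ls174T cells 29 of 30 genes were higher, against 50.4% of the other genes. Past 1.5-fold higher were 22 genes and lower 0, against 24.8% and 27.4% of the other genes. STARD4 (2.75 ± 0.34), FADS2 (2.65 ± 0.34), SREBF1 (2.59 ± 0.24), HMGCS1 (2.49 ± 0.25), and MSMO1 (2.42 ± 0.35) differed most. SCAP alone was higher in HEK293T cells, with a difference of −0.51 ± 0.29. The 2 arrays lay on different slides, and the lines also differ in tissue of origin and in culture medium treatment.

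Genes next to the set in the same biology were counted in 4 lists, also chosen with earlier results of these data known. The groups are small, and 1 gene is a large share of each. Of 9 other SREBP targets, 9 of 9 lay below 0 after BRG1 depletion in each line, with medians of −0.35 and −0.52. Of the other genes, 51.2% lay below 0 in Ls174T and 50% in HEK293T cells. Past 1.5-fold lower were 3 of 9 in Ls174T cells, against 4.31% of other genes, and 2 of 9 in HEK293T cells, against 12.7%. Past 1.5-fold lower in Ls174T cells were ACSS2, an acetyl-CoA synthetase (−0.77 ± 0.24), LPIN1, a phosphatidate phosphatase (−0.71 ± 0.29), and ME1, the malic enzyme that supplies NADPH (−0.69 ± 0.27). In HEK293T cells these were PCYT2, an enzyme of phosphatidylethanolamine synthesis (−1.23 ± 0.31), and TMEM97, a sterol-regulated membrane protein (−0.93 ± 0.17). After β-catenin depletion 7 of 9 lay above 0, against 49.1% of other genes. Past 1.5-fold higher were 3 of 9, against 10.8% of other genes. These were MID1IP1, an activator of acetyl-CoA carboxylase (0.92 ± 0.16), ACSS2 (0.88 ± 0.11), and PCYT2 (0.62 ± 0.15). After p300 depletion in Ls174T cells ACSS2 was past it lower (−0.59 ± 0.24), against 5.13% of other genes.

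Of the 6 genes that process SREBP or turn over its regulators, 0 were past 1.5-fold after BRG1 depletion in Ls174T cells. The shares of other genes there were 4.31% lower and 7.47% higher. ERLIN1 was past it higher after BRG1 depletion in HEK293T cells (0.89 ± 0.32, against 8.11% of other genes). ERLIN2, its partner in the membrane, was past it higher after β-catenin depletion (0.59 ± 0.11, against 10.8% of other genes). Of the 7 enzymes that branch off at farnesyl diphosphate toward prenylation, dolichol and ubiquinone, 0 were past 1.5-fold in any of the 9 comparisons (6 of the 7 were measured on the β-catenin pair). With so few genes, a count of 0 lies near the share of other genes, which was 1.57% to 12.7% in one direction. DHDDS was at 0.5842 after β-catenin depletion, just short of the limit of 0.5850. Among 9 genes of sterol efflux and the LXR receptors, at most 2 were past 1.5-fold in any of the 9 comparisons, where 1.57% to 12.7% of other genes were past it in one direction. The cholesterol exporter ABCG1 was at 1.20 ± 0.49 after BRG1 and 0.76 ± 0.51 after p300 depletion in Ls174T cells. In HEK293T cells ABCG1 was at −0.74 ± 0.40 and −0.63 ± 0.39 after the same depletions, and at 0.73 ± 0.40 after Wnt3A. ABCA1, the other exporter, was at 2.09 ± 0.81 after MLLT10/AF10 and 1.08 ± 0.87 after BRG1 depletion in Ls174T cells, but neither of its features was well above background in the sample channel on any Ls174T array. NR1H3, an LXR receptor, was at 0.74 ± 0.15 after β-catenin depletion.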

How the data were processed

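RNA from 12 siRNA-transfected cultures was measured on 2-color Agilent arrays of the 4x44K human design. The intensities of both channels and the log10 ratios of Cy5 to Cy3 were deposited by the authors as made by Agilent Feature Extraction, version 10.5.1.1 per the file headers (8.5.1.1 in the submitters' processing notes), which had subtracted background and normalized the dyes within each array. The direction of each ratio was set from the dyes in the labels, sample over reference, and the log10 ratios that the authors deposited were converted to log2. For the β-catenin pair the labels, which name si-control cells as the partner channel, were followed rather than the methods, which name the reference for all arrays.

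Features were kept where the median signal of either channel was over 2 times that of the surrounding background on each array of a comparison, without control spots or outlier features. Spots of a probe and then probes of a gene were averaged. The files hold RefSeq accessions, and 27607 of 29084 such features (94.9%) were named through a RefSeq gene table. Ratios on single arrays use features measured on all 10 reference arrays, or on both arrays of the pair. The 2 arrays of the pair were averaged as 1 replicate. Depth is not defined for arrays, and their number limits the precision. No test was made, and 1.5-fold served as the call in every comparison, with 2-fold as an alternative. The other alternatives were normexp (offset of 50) with loess in limma 3.58.1 under R 4.3.3, the sample channel alone scaled to the 75th percentile, the deposited table of values, both channels above background or no filter, the median over probes, centring, kept outliers, and single arrays of the pair. For BRG1 and p300 depletion, other arrays also took the place of si-control, a setting chosen after seeing the data. These were si-MLLT10 in Ls174T cells and the mean of si-MLLT10 and si-DOT1L in HEK293T cells. They hold depleted cells, not si-control cells. The members and lists were chosen with earlier results of these data known. All 31 members are accounted for, and values on every array are given for INSIG1, SREBF1, SREBF2, SCAP, HMGCS1, SQLE, FASN, SCD and each member past 1.5-fold in at least 2 comparisons or past 2-fold in 1. Of the other lists, at most the 4 largest changes past 1.5-fold per comparison are named. The steps were tested on simulated data, and Python 3.11.15 with numpy 2.4.6 and pandas 2.3.3 was used.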

Additional observations from a re-analysis of the deposited data

Results flagged for a closer look

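In 4 cases a gene of the set was past 1.5-fold in one line and on the other side of 0 in the other line, with the values further apart than 2 combined program errors. The difference between the lines was not tested in any of them, since each condition has 1 array. After BRG1 depletion, TM7SF2 was at 0.10 in Ls174T and −0.76 in HEK293T cells. HSD17B7 was at −0.66 and 0.038 after BRG1 depletion, and at −0.67 and 0.0093 after p300 depletion, so its HEK293T values were within the program error of 0. INSIG1 was at −0.69 in Ls174T and 0.32 in HEK293T cells after p300 depletion. The EP300 transcript itself was at −0.96 in Ls174T and −2.66 in HEK293T cells after p300 depletion.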

How the results depend on the processing

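The median change of the set moved by at most 0.085 on the log2 scale in all 77 alternative settings and changed sign in none. Some of these settings could not move it. The deposited table holds the same ratios, and no feature of the set was flagged as an outlier, so keeping outliers changed nothing. The same holds for the counts and single genes below. It ranged from −0.52 to −0.42 after BRG1 depletion in Ls174T and from −0.52 to −0.43 in HEK293T cells, and from 0.31 to 0.38 after β-catenin depletion. Of 86 alternative counts of genes past 1.5-fold, 78 stayed within 1.5 times the count given. With 2-fold as the limit the count was 0 after β-catenin depletion, 2 after BRG1 and 0 after p300 depletion in Ls174T cells, and 5 after BRG1 depletion in HEK293T cells. With the sample channel alone it was 5 after p300 depletion in Ls174T cells (all lower), 2 for Wnt3A (both higher), and 1 after MLLT10/AF10 depletion in HEK293T cells (lower). Against the mean of the si-MLLT10 and si-DOT1L arrays in place of si-control, it was 1 after p300 depletion in HEK293T cells (higher). The cause was not tested. Of 279 values of single genes past 1.5-fold, 268 stayed past it, 11 did not and 0 changed sign. With the sample channel alone these were ELOVL6 (−0.42), FADS2 (−0.11), IDI1 (−0.41), and MVK (−0.38) in BRG1-depleted Ls174T cells and FDPS (−0.56) in BRG1-depleted HEK293T cells. ELOVL6 in Ls174T and SQLE in HEK293T cells also fell short after centring (both −0.58). They did so too against depleted arrays in place of si-control (−0.54 against si-MLLT10, and −0.41 against the mean of si-MLLT10 and si-DOT1L). After β-catenin depletion they were SREBF1 with normexp (0.53) and FADS2 on the first array alone (0.52). Leaving out a replicate was possible only within the β-catenin pair, whose single arrays gave medians of 0.31 and 0.34. With 1 culture per condition, the spread between cultures is unknown for every value here. No paired analysis was possible because the groups hold 1 replicate each and the 2 arrays of the pair hold the same RNA.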
